A study of Mus musculus with 2 samples.

Results

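The genes described here are 8 members of the hedgehog, COUP-TFII and HAND2 pathway of the uterus: Ihh, Ptch1, Smo, Gli1, Gli2, Gli3, Nr2f2 and Hand2. They were chosen by name with earlier results of these data known, as were the hedgehog and progesterone-linked lists below. The summit of a peak is its position of highest enrichment. Every deposited peak of N4-acetylcytidine (ac4C) was taken whose summit lay in the RefSeq span of one of the 8 genes, introns included. This gave 58 of the 21192 peaks in the list. Of 21900 protein-coding genes in the RefSeq table, these are 8.

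The tissue was whole uterus, taken from wild-type mice at day 4 of gestation. RNA fragments carrying ac4C, an acetyl group on cytidine, were pulled down from polyA RNA with an antibody and sequenced as 1 immunoprecipitation library, beside 1 input control library of the same tissue. Both groups share the wild-type genotype, the tissue and the day. The number and age of the animals, and whether their RNA was pooled, were not given in the sources used here. With 1 library in each group no value has a replicate check. Intervals below cover only the counting error of the immunoprecipitated fragments, with the background taken as known.

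Indian hedgehog, encoded by Ihh, is a secreted ligand that progesterone induces in the uterine epithelium, and it acts on the stroma beneath. It binds Patched 1, which otherwise holds Smoothened inactive, and the signal ends in the GLI transcription factors. In the stroma, COUP-TFII (Nr2f2), a nuclear receptor, acts downstream of the hedgehog signal, and HAND2, a basic helix-loop-helix factor, lowers the output of fibroblast growth factors that keep the epithelium responsive to oestrogen. These steps are known to prepare the uterus for implantation.

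The start of a gene is where RefSeq (GRCm38.p6) supplies a window of sequence, 250 bases before to 50 bases after the start. A window was held for 7 of the 8 genes, not for Gli1. In Ihh, Ptch1 and Gli3 a peak reached over the start into these 250 bases. The bases before the start that lay under the peak are shown. In Ihh and Gli3 they lie outside the RefSeq span of the gene, and in Ptch1 inside it. The stretches are written 5′ to 3′ on the strand of the gene. Capitals mark runs of 5 or more consecutive triplets of the form CNN, a C followed by any 2 bases, a repeat that has been described around ac4C sites in mRNA.
Ihh, minus strand, chr1:74951673-74951771: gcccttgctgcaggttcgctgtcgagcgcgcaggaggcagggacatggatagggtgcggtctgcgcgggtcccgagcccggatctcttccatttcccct
Ptch1, minus strand, chr13:63565736-63565985: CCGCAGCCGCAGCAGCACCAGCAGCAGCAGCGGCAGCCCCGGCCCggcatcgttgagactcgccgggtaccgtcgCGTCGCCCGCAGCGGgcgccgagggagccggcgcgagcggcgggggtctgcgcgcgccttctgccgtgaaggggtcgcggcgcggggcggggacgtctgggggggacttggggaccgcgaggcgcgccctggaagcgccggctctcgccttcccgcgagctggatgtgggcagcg
Gli3, plus strand, chr13:15463609-15463722: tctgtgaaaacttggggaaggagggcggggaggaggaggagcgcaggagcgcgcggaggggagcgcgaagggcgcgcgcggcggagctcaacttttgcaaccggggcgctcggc

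The Ptch1 stretch held a run of 15 CNN triplets, at the edge of the window farthest from the start, and 34.8% of its bases were C. The other stretches held no run of 5 or more, with 31.3% C in Ihh and 21.9% C in Gli3. A run of 15 triplets or more on the gene's strand was found in 86 of all 32851 start windows. Runs of at least 5 are common: 41.2% of all windows of 300 bases held one on the gene's strand and 43.9% on the opposite strand, against 7 and 5 of the 7 member windows. The base composition of the windows differs as well, since G and C made up 49.7 to 76.3% of the member windows and a median of 52.7% of all windows. The peak list gives no strand, and a match of letters does not show a modified base.

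Each of the 8 genes held at least 3 summits. Across the protein-coding genes, 30.6% held at least 1 summit and 11.9% held at least 3. The members' peaks numbered 19 in Gli2, 8 in Gli1, 7 in Ptch1, 6 in Smo, 6 in Nr2f2, 5 in Gli3, 4 in Ihh and 3 in Hand2. The median was 6 peaks a gene, against 2 over the protein-coding genes with a peak. No member was without a peak. RNA abundance, which bears on whether a peak can be called, was not measured here. In RNA of a whole tissue, fewer cells of a type and less RNA per cell cannot be told apart.

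The fold enrichment of a peak is the authors' own value, the signal at the summit over its background, each with a pseudocount of 1 added. Its median over the 58 peaks was 5.95, close to the 5.58 of the whole list, and 32 of the 58 lay above that list median. The peaks ranged from 2.84, in Ptch1, to 23.8, in Ihh. At the summits 7 to 118 fragments were recovered from the deposited values, with a median of 30 fragments against 22 in the list, over a median background of 3.57 fragments against 2.63. The 95% Poisson interval ran in the median member peak from 68.5% to 141% of its fold enrichment. In fold enrichment the 58 peaks as a whole thus sat near the middle of the list, and the genes differed in their highest peaks. The median −log10 q of the 58 peaks was higher, 13.4 against 9.06 in the list.

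The highest peaks, in descending order, were those of Ihh at 23.8 (95% interval 17.1 to 32.3), Hand2 at 17.5 (13.9 to 21.7), Nr2f2 at 15.8 (12.9 to 19.3), Gli2 at 11.3 (7.96 to 15.6), Gli3 at 10.8 (7.08 to 15.9), Ptch1 at 8.65 (6.40 to 11.4), Gli1 at 7.48 (5.88 to 9.40) and Smo at 6.89 (4.72 to 9.74). Neighbours in this order overlapped in their intervals throughout. Of the 28 pairs of genes, 11 had intervals that did not overlap, with the counting error of the background left out. These were Ihh against each of Ptch1, Smo and the 3 Gli genes, and Nr2f2 and Hand2 each against Ptch1, Smo and Gli1. All 8 values lay above 6.61, the median of the highest peak over protein-coding genes with a peak, and their median was 11.0. Genes with more peaks have more chances of a high one. With each gene's median peak in place of its highest, the median of the 8 genes was 5.83. The 6.61 is a median of highest peaks, so it is not a like measure for this value.

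**Figure D1:**
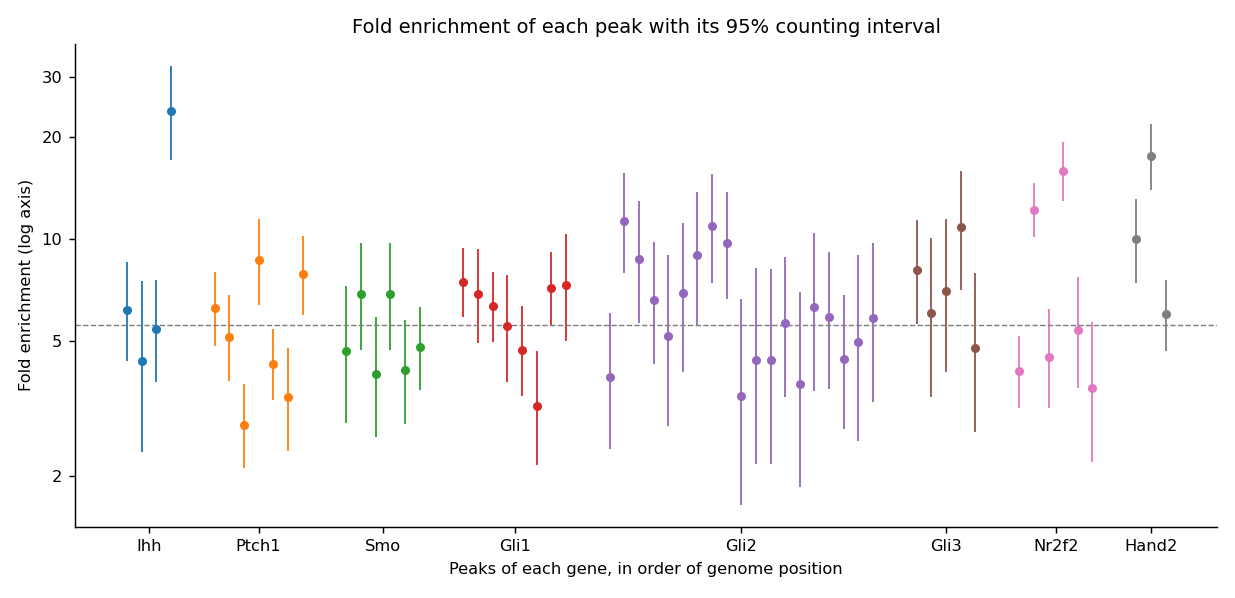
Fold enrichment (log axis) of each of the 58 peaks, by gene and in order of genome position within the gene; points are the authors' values, bars are 95% Poisson intervals of the fragments at the summit, and the dashed line is the list median of 5.58. The intervals of the top peaks of Ihh and Hand2 lie above those of the other peaks of their genes, the top peak of Nr2f2 overlaps 1 other, and the peaks of Smo and Gli1 lie within 3.23 and 7.48.

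The ligand gene Ihh (NCBI gene 16147; chromosome 1, 74945315 to 74951672, minus strand) spans 6.36 kb and held 4 peaks, which covered 49.1% of it. Its highest peak, from 74950503 to 74951771, was 1269 bp wide with the summit 258 bp after the start, and it ran 99 bp past the start. The other peaks lay 3233, 3809 and 6046 bp after the start, at 5.44 (3.79 to 7.57), 4.36 (2.36 to 7.52) and 6.19 (4.36 to 8.54). All of their intervals lay below that of the peak at the start. Fragment numbers alone did not set the peak at the start apart. It rested on 39 fragments, and the peaks 6046 and 3233 bp after the start rested on 35 and 33. The background was 0.683 fragments at the start peak, against 4.81 and 5.25 at these peaks, and the highest background in Ihh was 7.69 times the lowest. How the caller set its background, from the input at the site or from its surroundings, was not given in the sources used here, and the part of the low background in the value was not tested.

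The peak nearest the other end of Ihh was also wide, at 1440 bp, and its summit lay at 95.1% of the span counted from the start. A width of at least 1000 bp was found in 5 of the 58 member peaks (8.62%) and in 5.50% of the list. The other wide peaks were 1911 bp in Gli1, 2347 bp in Gli2 and 1496 bp in Nr2f2. In 4 of the 8 genes the highest peak was among these wide ones. Over the list, peaks of at least 1000 bp had a median fold enrichment of 8.15. A wide peak is represented by its highest point, and fold enrichment and width had a Spearman correlation of 0.38 over the 58 peaks and 0.22 over all 21192, as a description of peaks that share the same libraries.

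Ptch1 (NCBI gene 19206; chromosome 13, 63508328 to 63573460, minus strand) encodes the receptor and is itself a textbook target of the pathway. It held 7 peaks over 65.1 kb, on 32 to 69 fragments. The highest, from 63532662 to 63532947, stood at 8.65 on 47 fragments over a background of 4.55. Close to it in value was the peak from 63565520 to 63566242, at 7.86 (5.95 to 10.2), which covered the whole start window printed above. Its summit lay 348 bp before the listed start and still inside the span, which runs on beyond that start.

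The remaining peaks of Ptch1 stood at 6.28, 5.15, 4.29, 3.41 and 2.84. The lowest of them, from 63523110 to 63523413, had the highest background among the members, 16.6 fragments, under 49 fragments. It had about as many fragments as the highest peak of the gene, which had 47. The interval of the highest peak lay above those of 3 other Ptch1 peaks.

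Smo (NCBI gene 319757; chromosome 6, 29735497 to 29761366, plus strand), the transducer that Patched 1 restrains, held 6 peaks within a narrow range, from 4.00 to 6.89. The interval of its highest peak overlapped those of all its other peaks, which does not show that the values are equal. A pair of them, from 29753369 to 29753583 and from 29755118 to 29755539, had the same values, 30 fragments over a background of 3.50. The first peak lay 352 bp after the start at 4.68 (2.87 to 7.25). The other 5 lay in the last part of the gene, from 69.5% to 94.9% of the span, with no peak in the 17.6 kb between them and the first.

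**Figure D2:**
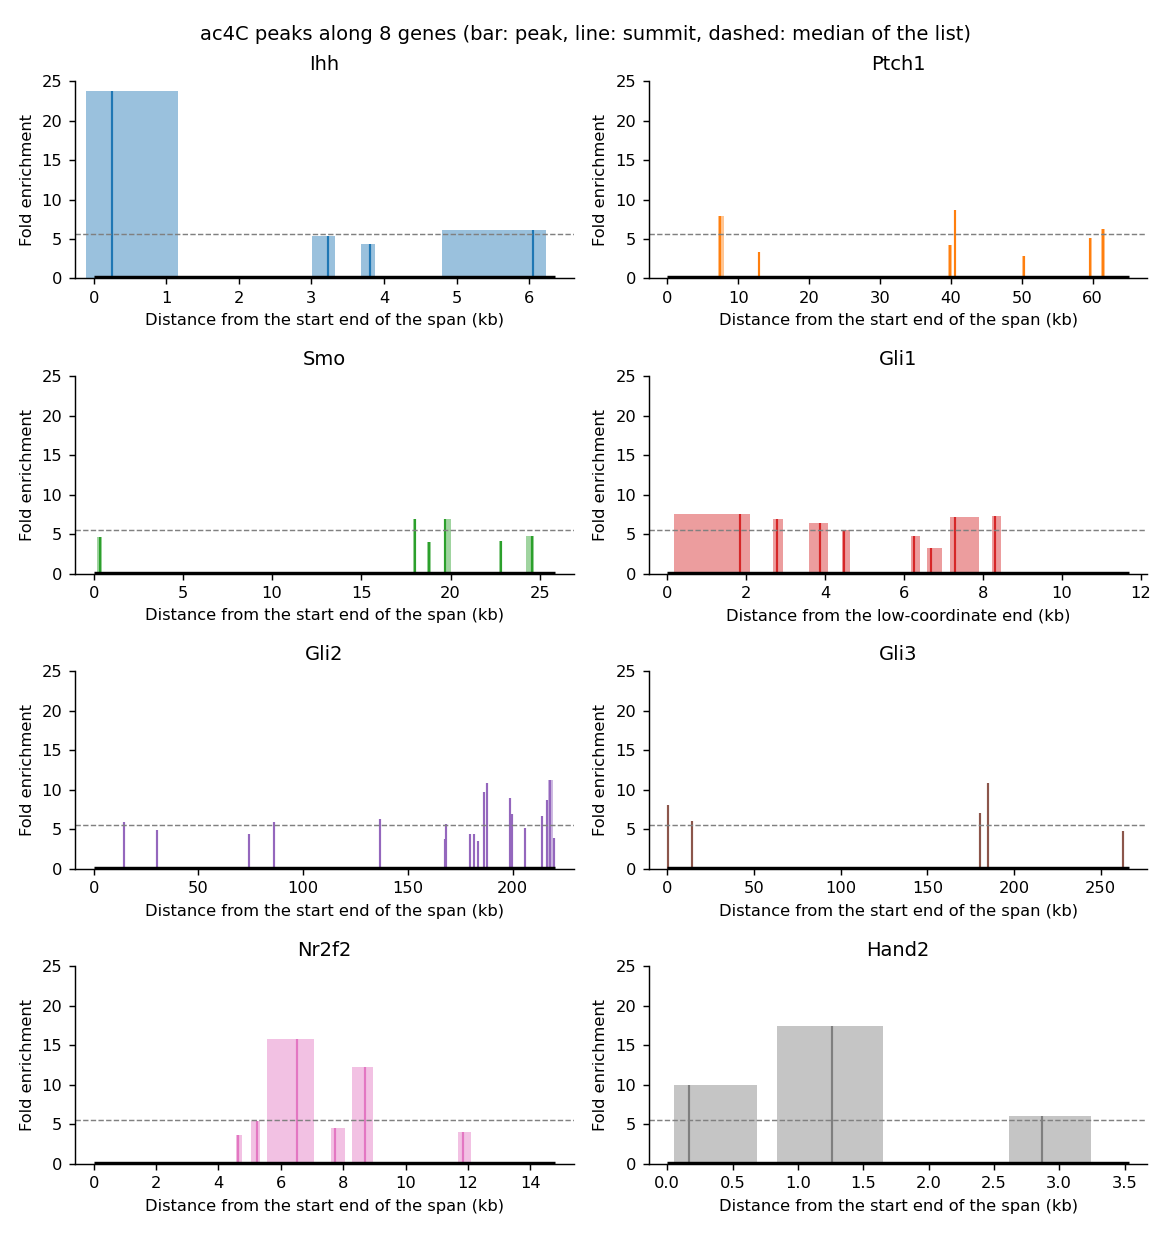
Peaks along the 8 genes: horizontal axis, distance in kb from the start end of the RefSeq span (for Gli1, from its low-coordinate end), vertical axis, fold enrichment; bars have the width of the peak, thin lines mark summits, the black line is the span and the dashed line the list median of 5.58. In Ihh the highest peak lies over the start, in Hand2 and Nr2f2 inside the gene, and in Gli2 most peaks crowd at the far end.

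Gli1 (NCBI gene 14632; chromosome 10, 127329882 to 127341579), whose transcript is a standard readout of hedgehog signalling, held 8 peaks in 11.7 kb, or 6.84 per 10 kb. More peaks per kb than in Gli1 were found in few genes, since 95.1% of the protein-coding genes with a peak had fewer. Hand2 was among those few, with 8.49 per 10 kb, and Ihh came close, with 6.29. The peaks of Gli1 reached from 3.23 to 7.48 on 26 to 72 fragments. The highest, from 127330059 to 127331969, stood at 7.48 on 72 fragments over 8.75, and 3 more stood near it, at 7.33, 7.18 and 6.88. Only the peak from 127336467 to 127336852, at 3.23 (2.15 to 4.68), had an interval below that of the highest. The enrichment in Gli1 was thus spread over many peaks, with no single one far above the rest. Summits lay between 15.7% and 71.0% of the span, counted from the low-coordinate end because the strand of Gli1 was not in the tables used.

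Gli2 (NCBI gene 14633; chromosome 1, 118834061 to 119054405, minus strand), a main activator among the GLI factors, held 19 peaks over 220.3 kb. As many as 99.3% of the protein-coding genes with a peak had fewer peaks, but per 10 kb Gli2 held 0.862 peaks, near the median of 0.845. Of the 19 peaks, 14 lay from 76.2% of the span onward, counted from the start. The highest, from 118835303 to 118837649, had its summit at 98.9% of the span from the start, at 11.3 on 35 fragments over 2.19, and was the widest member peak. Next came the peaks from 118866591 to 118866913 at 10.9 (7.42 to 15.5) and from 118868027 to 118868348 at 9.72 (6.66 to 13.7), whose intervals overlapped that of the highest.

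The Gli2 peaks rested on few fragments, 7 to 35 with a median of 17, over backgrounds of 1.02 to 3.85. The weakest, from 118870966 to 118871235, stood at 3.46 (1.65 to 6.67) on 7 fragments. Of the 19, 6 had a −log10 q of at least 10, the smallest such share among the 8 genes, against 34 of all 58 member peaks. In the whole list the median −log10 q was 9.06, so most peaks there fell below 10.

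Gli3 (NCBI gene 14634; chromosome 13, 15463723 to 15730026, plus strand), known chiefly as the repressor form that hedgehog signalling removes, had the longest span and the sparsest peaks. It held 5 peaks in 266.3 kb, which covered 0.483% of the span. The highest, from 15648360 to 15648635, stood at 10.8 on 24 fragments over 1.31. The peak at the start, from 15463609 to 15464100, stood at 8.12 (5.63 to 11.4) on 32 fragments with its summit 188 bp after the start. Its summit also lay in the long non-coding RNA gene Gm6556, and without strand these genes cannot be told apart there. It was the single summit of the 58 that lay in a further gene. The other 3 peaks of Gli3 stood at 4.78 to 7.02 on 13 or 14 fragments, and the interval of the highest overlapped all the others.

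Nr2f2 (NCBI gene 11819; chromosome 7, 70351946 to 70366746, minus strand), the gene of COUP-TFII, had a pair of peaks that stood above its other 4. The peak from 70359684 to 70361179 stood at 15.8 on 98 fragments over 5.25, and the peak from 70357780 to 70358458 at 12.2 (10.1 to 14.6) on 118 fragments over 8.75. The intervals of these peaks overlapped each other. The latter had the smaller q and the largest number of fragments among the 58. The other 4 stood at 3.63 to 5.39, and all 4 intervals lay below that of the highest peak. Here fragments and background moved differently from Ihh: the pair had the most fragments of the gene, while its backgrounds lay inside the gene's range of 3.96 to 15.4.

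No Nr2f2 peak reached the start window. The summits lay 4639 to 11857 bp after the start, with the highest at 6512 bp. The long non-coding RNA gene B130024G19Rik overlaps the start end of Nr2f2, and none of the Nr2f2 summits lay in it.

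Hand2 (NCBI gene 15111; chromosome 8, 57320983 to 57324517, plus strand) is the shortest of the genes at 3.53 kb, and its 3 peaks covered 59.0% of the span. The highest, from 57321823 to 57322635, stood at 17.5 on 80 fragments over 3.63, with the summit 1263 bp after the start. The peak before it, from 57321036 to 57321671, began 53 bp after the start and stood at 9.96 (7.42 to 13.1) on 49 fragments over 4.02. The last, from 57323595 to 57324229, stood at 5.997 (4.68 to 7.58) on 68 fragments over 10.5. The interval of the highest lay above both others. Background rose at the last peak while fragments stayed close to those of the highest. The neighbouring long non-coding RNA gene Hand2os1 ends 124 bp before Hand2 and held no summit.

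**Figure D3:**
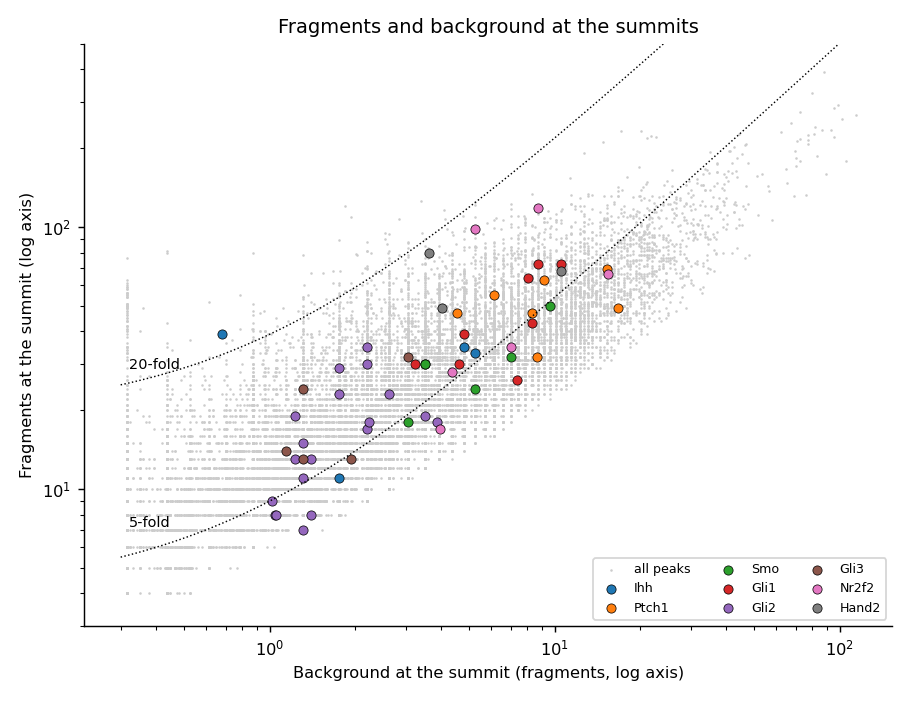
Fragments at the summit against background at the summit (both log axes, in fragments) for all 21192 peaks in grey and the 58 member peaks in colour; dotted lines mark 5-fold and 20-fold enrichment. The highest Ihh peak (39 fragments over 0.683) lies far to the left of the highest peaks of Hand2 (80 over 3.63) and Nr2f2 (98 over 5.25).

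For the 7 genes with a known strand, 50 peaks could be placed from the start end to the far end of the span. Divided into 3 equal parts, the spans held 10 peaks in the start part, 12 in the middle and 28 in the far part (56.0%). Over 15514 peaks of the list placed in the same way, 53.3% lay in the far part and 22.7% in the start part. With Gli2 included, the members' share in the far part was near that of the list. Without Gli2, 31 peaks remained, 8 in the start part, 9 in the middle and 14 in the far part. Their far share was below the 53.3% of the list, and this difference was not tested. A peak over the start window was found in 3 of 7 members (42.9%) and in 638 of 5351 protein-coding genes with a peak and a window (11.9%). These shares are not alike in number of peaks. The 8 members held a median of 6 a gene, against 2 over protein-coding genes with a peak. The part of this in the shares was not tested. As exon positions were not used here, it was not resolved which peaks lie in untranslated or coding sequence or in introns.

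Together with the GLI-related genes Glis1, Glis2 and Glis3, other genes of the hedgehog pathway were examined as a list of 34. It runs from ligands and co-receptors to the cilium proteins through which the signal passes. Of the 34 genes, 25 held a peak, the Glis genes among them (73.5%, where 30.6% of all protein-coding genes held one). The highest peak of 14 of the 25 lay above 6.61. Their median highest peak was 6.89. The highest were those of Gas1, a co-receptor for hedgehog ligands, at 20.2 (16.8 to 24.0) on 125 fragments and of Scube1, a secreted protein of a family that helps release the ligand, at 18.8 (14.6 to 23.7). Then came Gsk3b, a kinase that phosphorylates GLI proteins, at 14.7 (11.7 to 18.3), Cul3, a ubiquitin ligase scaffold, at 14.4 (9.59 to 20.8), and Glis3, a GLI-related zinc finger factor, at 11.2 (6.86 to 17.3).

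The 9 genes of this list without a peak were Shh, Dhh, Hhip, Disp2, Scube2, Scube3, Ift88, Arl13b and Stk36. Of the 3 hedgehog ligands, Ihh held peaks, and Shh and Dhh held none. Only 30.6% of all protein-coding genes held a peak, and Ihh was chosen with earlier results of these data known. Nothing particular to Ihh among the ligands is therefore read from this count. At this depth a missing peak does not show that enrichment was absent, and the list holds no background for a gene without one.

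Genes linked to COUP-TFII, HAND2 or progesterone action were examined as a list of 31, of which 30 code for protein. A peak was held by 22, the non-coding gene Hand2os1 not among them (71.0% of the 31, where 30.6% of protein-coding genes held one), and the highest peak of 16 of the 22 lay above 6.61. The highest were Muc1, a surface mucin, at 18.2 (13.9 to 23.5), the nuclear receptor Nr2f6 at 15.4 (11.3 to 20.6), the helix-loop-helix factor Tcf3, whose products pair with factors such as HAND2, at 14.6 (9.86 to 20.8), Sox17 at 14.4 (11.7 to 17.6) and Msx1 at 13.6 (10.7 to 17.0). Without a peak were Hand1, Hand2os1, Fkbp4 and all 6 fibroblast growth factor genes of the list, Fgf1, Fgf2, Fgf9, Fgf10, Fgf12 and Fgf18. The receptors Fgfr1 and Fgfr2, singled out after their values were seen, held 5 and 7 peaks, with the highest at 9.996 and 9.51. Most protein-coding genes hold no peak, so nothing particular to these ligands is read from their count, and no other receptor of the family was on the list.

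**Figure D4:**
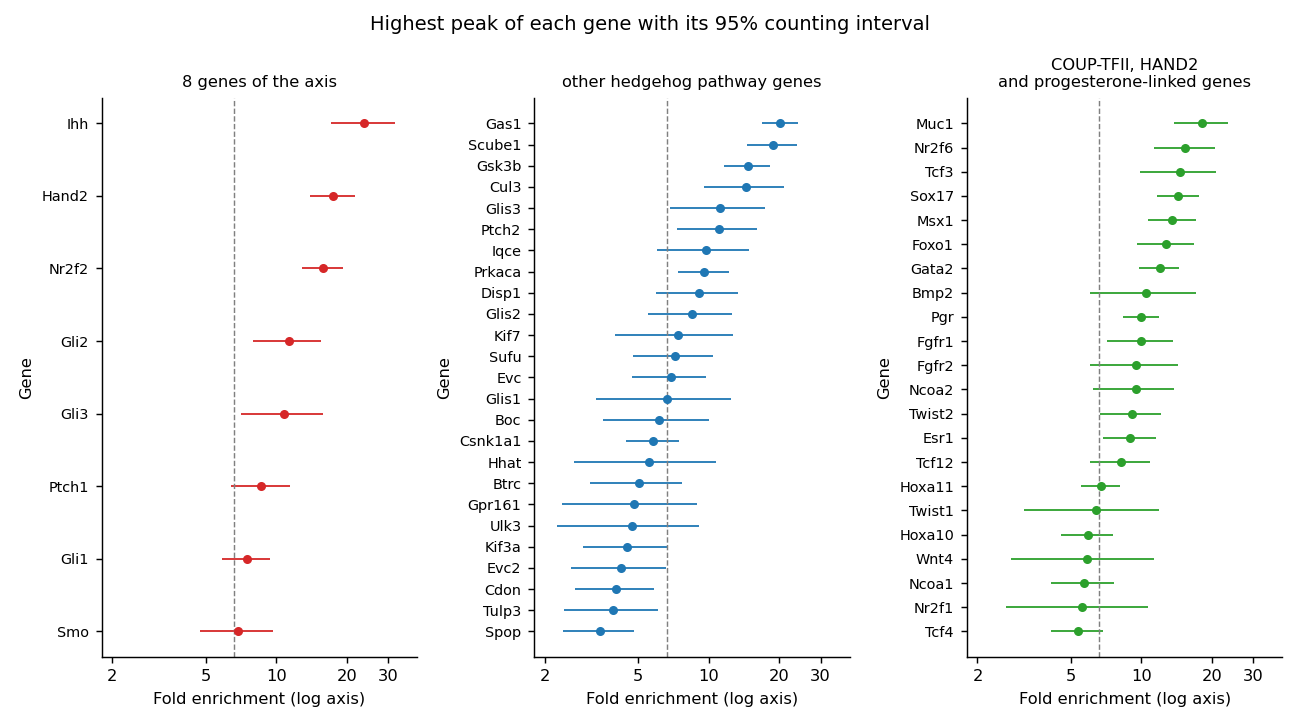
Fold enrichment (log axis) of the highest peak of each gene that held one, for the 8 genes (left), 25 of 34 other hedgehog pathway genes (middle) and 22 of 31 genes linked to COUP-TFII, HAND2 or progesterone (right); bars are 95% Poisson intervals and the dashed line is 6.61, the median over protein-coding genes that held a peak. Ihh stands highest at 23.8, and Gas1 at 20.2 and Muc1 at 18.2 lead the other lists.

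Of 19 marker genes of the cell types of the uterus, peaks were held by 17 (89.5%, where 30.6% of protein-coding genes held one), 5 of 6 for epithelium, 4 of 4 for stroma, 4 of 4 for smooth muscle, 3 of 3 for endothelium and 1 of 2 for immune cells, with none in Epcam or Ptprc. This describes where peaks lay and does not measure the cell types. The cell type in which a member transcript was enriched was not resolved.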

How the data were processed

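The deposited file was 1 peak list in the narrowPeak layout for the 1 ac4C immunoprecipitation library and its input. The submitters' processing notes name HISAT2 2.2.1, MACS3 3.0.0a7 and build mm10 (GRCm38), without settings. The fold enrichment (a ratio) of each peak, its −log10 p-value and −log10 q-value, its score and its summit offset were deposited by the authors. The largest q was 0.0499.

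Summits were matched to gene spans of a RefSeq table (GRCm38.p6), and strand and start came from the RefSeq start windows. For each peak the whole number of fragments was sought that gave both the deposited fold enrichment, with a pseudocount of 1, and the deposited Poisson p-value. It was found for 21192 of 21192 peaks within a relative tolerance of 1e-05, with no second fit, and for 100% of 2000 simulated peaks. Intervals are exact Poisson intervals of that number at 95%, with the background taken as known. PCR copies could not be told from separate molecules. Library read totals were not used here.

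With 1 library a group no test was made. The members and lists were chosen with earlier results of these data known. All 8 members are named. Of the hedgehog and progesterone-linked lists, the 5 genes with the highest peaks and those without a peak are named, and besides these Fgfr1 and Fgfr2, chosen after their values were seen. Of the markers, those without a peak are named. Analyses used Python with numpy 2.4.6, pandas 2.3.3 and scipy 1.17.1.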

Additional observations from a re-analysis of the deposited data

How the results depend on the processing

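The 58 peaks became 34 when a −log10 q of 10 was required and 32 when peaks under the list's median fold enrichment were left out, by construction of these filters, and 57 to 59 with any overlap of at least 1 bp, spans extended by 5 kb or summits in 1 gene only. All 8 genes kept a peak under these 5 alternatives. The median number of peaks a gene fell from 6 to 3 with the fold filter. The median of the highest peaks moved from 11.0 to 5.83 with the median peak of each gene in its place, and was 11.0 under the other 6 alternatives. The 25 other hedgehog pathway genes became 14 with the q filter, 16 with the fold filter and 27 with spans extended by 5 kb. The 22 genes linked to COUP-TFII, HAND2 or progesterone became 19, 20 and 23 under the same alternatives. None of these gene counts is set against all protein-coding genes, whose share with a peak is given only for the main setting. Of the member peaks, 72.4% lay in the outer parts when spans were cut into 3 and 51.7% when only the outermost 20% at each end was counted, which are shorter. No paired analysis was possible because each group had 1 library. Depth limits the weakest peaks: at 7 fragments, the interval of a fold enrichment of 3.46 ran from 1.65 to 6.67.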

Other observations

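A further peak lay just outside Ihh, 327 bp beyond the start end of its span. It ran from 74951940 to 74952139 on chromosome 1, 168 bp from the end of the peak over the Ihh start, and stood at 4.72 (95% interval 2.16 to 9.49) on 6 fragments over a background of 0.481. It was the only peak with a summit within 5 kb outside any of the 8 spans.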
